A study of Mus musculus with 11 samples.

Results

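The complement system was followed at the level of liver RNA through 31 genes, chosen by symbol as the components, regulators and receptors of complement listed for this account. All 31 were found among the 13636 genes of the deposited table, C1s under its mouse symbol C1s1. Every row of the table reached 1 CPM, computed from column totals, in at least 3 libraries. The control libraries alone meet this for 29 of the members, while C3ar1 and C5ar1 are in the table only through the mimic libraries and so had to differ; their values are given as a description. Cfd is the reverse case, in the table only through the control libraries, which favours a fall. By their usual source, 21 are made by hepatocytes, 6 by macrophages or other myeloid cells (C1qa, C1qb, C1qc, Cfp, C3ar1 and C5ar1), and 4 have another source (C1rb, Cfd, Cd55 and Cd59a). By role they comprise 9 genes of the classical pathway, 4 of the lectin pathway, 3 of the alternative pathway, C3 itself, 6 of the terminal pathway, 4 soluble regulators, 2 membrane regulators and 2 receptors.

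Complement is a cascade of plasma proteins, most of them secreted by the liver. Antibody complexes bound by C1q, microbial sugars bound by mannose-binding lectins, or a slow spontaneous turnover of C3 lead to the cleavage of C3, whose fragments coat surfaces, and then of C5, which opens the terminal pathway that inserts a pore into membranes. The small fragments C3a and C5a act on receptors of myeloid cells, and inhibitors in plasma and on cells hold the cascade in check.

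The livers came from male C57BL/6J mice, an inbred laboratory strain, all fed a Western diet from 8 weeks of age. After a month on the diet the mice were injected over 6 weeks with PBS (4 libraries), with a scramble oligomer (3 libraries) or with a mimic of the microRNA miR-30c (4 libraries), the oligomer dose being raised from 2.5 by way of 5.0 up to 7.5 mg/kg. All groups share the strain, the sex and the diet, and no group on a normal diet was analysed here. The labels number the libraries within a group but do not say that each is a separate mouse, so p-values cover only the spread between libraries, which may be technical.

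Values are scaled CPM as deposited, that is reads relative to the size of the library, with a scaling factor for each, and a log2 change is a difference of group means of log2(value + 1), given with its standard error (SE), a scale on which genes with low values appear to change less than they did. Genes were called at an adjusted p of 0.05 with limma. Reads counted, estimated from the step between a library's values and not from a count table (in PBS replicate 3 and mimic replicate 2 the smallest value was taken as 2 steps), ranged from 39705157 to 101380174 per library and were fewest in the mimic group, 39705157 to 60399018. The measured hepatocyte markers summed to between 39300 and 46380 scaled CPM in all 11 libraries. Large markers moved in opposite directions within that sum, so it does not show that the markers were unchanged. Alb averaged 17540 in PBS, 17310 in scramble and 12090 in mimic libraries, and Trf 3688, 3871 and 10110. The Alb difference was not called (limma adjusted p of 0.118 against scramble and 0.0822 against PBS). Mimic replicates 1 and 4 stood apart from replicates 2 and 3: the 19 rows named Mup, for major urinary proteins, held 12.5% and 11.7% of their reads, against 34.8% and 41.3%. The 7 control libraries ranged from 37.9% to 52.9%. In bulk liver, fewer cells of a type and less RNA per cell cannot be told apart.

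The mimic is modelled on miR-30c, whose mature mouse sequence (RefSeq, GRCm38.p6, encoded on chromosomes 1 and 4) is shown because its seed, bases 2 to 8 in capitals, decides which transcripts can pair with it.
mmu-miR-30c-5p: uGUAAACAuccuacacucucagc
The matching site in a transcript reads TGTTTAC. It was found in the longest annotated 3′ UTR (GENCODE M21) of 1 of the 30 members that have one, or 3.33%, against 1834 of 11456 measured genes, or 16.0%. The members' 3′ UTRs were shorter, with a median of 337 bases against 1166. The member with a site was C3ar1, at bases 2588 to 2594 of a 3′ UTR of 2685 bases, with the site in capitals in its surroundings.
C3ar1 site: ctaaaagatctTGTTTACtacgaggtaat
Its transcript was higher in the mimic group, as described with the receptors. C3ar1 is in the table only through the mimic libraries and had to be higher, so its direction says nothing about the site.

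The scramble group controls for the injection of an oligomer of another sequence and the PBS group for the injection alone. In the first comparison 16 members rose and 3 fell, where 17.3% of all genes were called higher and 14.7% lower. Against PBS 15 members rose and 3 fell, where 20.0% and 17.1% of all genes were called. The values did not overlap between mimic and scramble for 18 members that were higher and 2 that were lower (21.6% and 19.2% of all genes), and between mimic and PBS for 14 and 3 (17.2% and 14.5%). The median change of all 31 members was 0.33 against scramble and 0.34 against PBS, beside medians of all genes of 0.0033 and 0.0034. Of the 29 members that pass on the controls alone, 14 rose and 3 fell against scramble and 13 and 3 against PBS, with medians of 0.30 and 0.24. The 3 that fell include Cfd, which is in the table only through the controls, so its fall is no support. Both comparisons use the same mimic libraries. C4a and C4b may share reads, as may C1ra and C1rb, so these counts may hold the same signal more than once. Limma called 0% of all genes higher and 0% lower between scramble and PBS. No member had an unadjusted p under 0.05, and 434 of all genes did. Mbl2 was the only member without overlap, higher in every scramble library than in every PBS library. The share of all genes without overlap was not counted for this comparison.

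The count of members higher than scramble was 10 without scramble replicate 1 and 12 without scramble replicate 2, and it was 22 in both comparisons when reads were divided by library totals alone, a scaling that moved the median of all genes up by 0.49 against scramble and 0.51 against PBS. Without mimic replicates 1 and 4 the counts were 13 higher and 1 lower in either comparison.

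**Figure D1:**
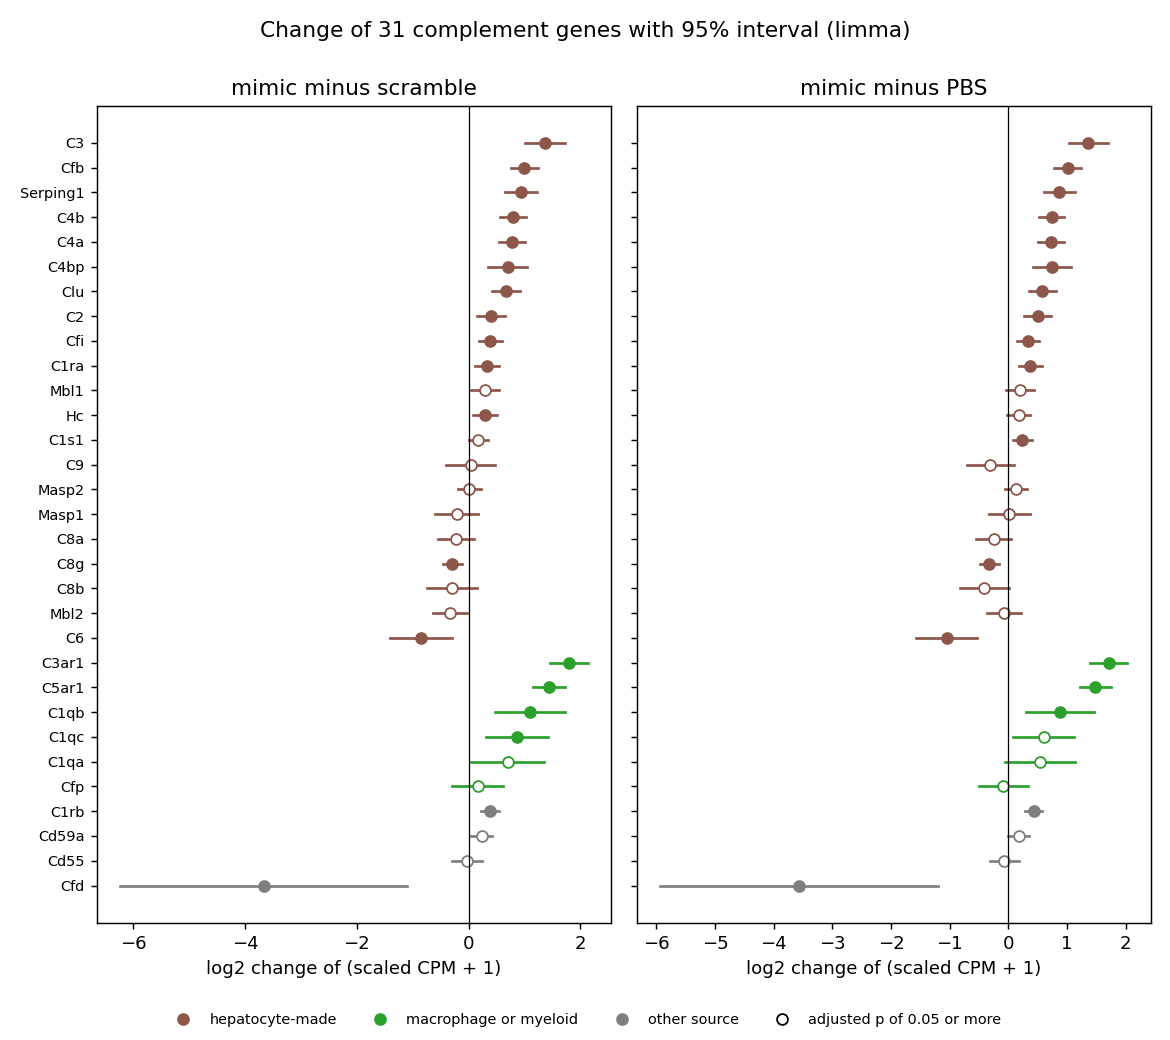
Log2 change of scaled CPM + 1 for each of the 31 genes, mimic minus scramble (left) and mimic minus PBS (right); points are estimates, lines are 95% intervals from limma, and open points did not pass an adjusted p of 0.05. C3, Cfb, Serping1, C4a, C4b, C4bp and Clu lie to the right in both panels, C6, C8g and Cfd to the left (C8g lies at 0.29 and 0.28 with library totals). Most other terminal and lectin pathway genes are open points, between -0.41 (C8b against PBS) and 0.30 (Mbl1 against scramble).

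C3, where all pathways meet, was the most abundant member and rose in the mimic group by 2.63-fold over scramble and 2.61-fold over PBS in scaled CPM. The gene occupies chromosome 17 from 57203970 to 57228136, minus strand (GRCm38). It stood at 2792, 2586, 2523 and 2642 scaled CPM in the PBS libraries, at 2492, 2619 and 2740 in the scramble libraries, and at 8639, 5879, 5903 and 7093 in mimic replicates 1 to 4. Every mimic library was above all 7 controls, and replicates 1 and 4 were the highest. The group means were 2636 ± 115 (SD, n = 4), 2617 ± 124 (SD, n = 3) and 6878 ± 1304 (SD, n = 4). C3 thus changed by 1.38 ± 0.16 (SE) on the log2 scale from scramble (adjusted p of 0.000164, limma) and by 1.37 ± 0.15 from PBS (8.9e-05).

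Per kilobase of merged exons C3 ranked 1 of the 31 in both the PBS and the mimic group, at 513 and 1337 scaled CPM per kilobase, followed in both groups by Clu, Serping1 and Cfb. Measured against other transcripts of the same library, which needs no scaling between libraries, C3 was 0.127 to 0.186 of albumin (Alb) in the controls and 0.429 to 0.870 in the mimic libraries. Alb itself was lower in the mimic libraries, 9930 to 13760 scaled CPM against 13900 to 21930, a difference that was not called. Beside Hc, the gene of C5, C3 was 5.95 to 7.21 in the controls and 11.7 to 18.6 in the mimic libraries. C3 alone took 0.356% to 0.458% of the reads outside the Mup rows in the controls and 0.973% to 1.56% in the mimic libraries.

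The C3 promoter, from 250 bases before to 50 after the annotated start (RefSeq, GRCm38.p6, chr17:57228087-57228386, minus strand), is shown because C3 carried the biggest part of the members' RNA. Its capitals mark a match to TTGCNNAA, the motif of C/EBP factors, which begins 45 bases before the start.
C3 promoter: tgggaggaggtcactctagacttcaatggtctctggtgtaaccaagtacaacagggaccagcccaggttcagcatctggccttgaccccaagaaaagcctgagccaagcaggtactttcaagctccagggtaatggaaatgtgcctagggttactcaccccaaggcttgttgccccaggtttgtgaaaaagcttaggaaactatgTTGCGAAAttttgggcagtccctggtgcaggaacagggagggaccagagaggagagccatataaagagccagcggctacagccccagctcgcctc
The table of promoters held 22 of the members. C1qa, C2, C4a, C4b, Cfb, Cfi, Masp1, Serping1 and Clu were not in it and were not searched. All of these but C1qa and Masp1 rose in both comparisons, so the motif counts leave out many of the members that rose. Both strands were searched for 4 motifs. A gene was counted if any of its promoters held a match. TTGCNNAA was in 5 of the 22 (C3, C1ra, C1rb, C1s1 and C9) and in 10.6% of the 9449 measured genes with a promoter. It was not in every promoter listed for C1s1. TTCNNNGAA, the motif of STAT factors, was in 4 (C1ra, C1rb, C8a and Masp2) and in 8.49% of those genes. The motif of interferon response elements was in Cd59a and in 3.94% of those genes, and the NF-kB motif was in C3ar1 and in 2.0%. The members with a STAT match comprised C1ra and C1rb, which rose, and C8a and Masp2, which were not called. A match describes these letters only and shows no binding.

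Of the alternative pathway, Cfb rose, Cfd fell and Cfp was not called. Cfb encodes factor B, the protease part of the alternative C3 convertase, and lies next to C2 on chromosome 17 (34856374 to 34862518, minus strand). It was 393, 350, 391 and 357 in the PBS libraries, 347, 395 and 386 in the scramble libraries, and 880, 682, 680 and 787 in the mimic libraries, so the groups were well apart. The means were 373 ± 22.5 (SD, n = 4), 376 ± 25.4 (SD, n = 3) and 757 ± 96.0 (SD, n = 4), a log2 change of 1.0015 ± 0.11 (SE) from scramble and 1.01 ± 0.10 from PBS (adjusted p of 0.000117 and 5.47e-05, limma). The ratio of Cfb to C3 was 0.135 to 0.155 in the controls and 0.102 to 0.116 in the mimic libraries. The ratio of Cfb to its neighbour and paralog C2 was 5.52 to 7.65 in the controls and 7.81 to 11.5 in the mimic libraries. Neither ratio overlapped between the controls and the mimic libraries.

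Cfd encodes factor D (adipsin), the protease that cleaves factor B and is known chiefly from fat cells, and it lies on chromosome 10 at 79890853 to 79892655. Its values ran over a wide range within every group. They were 38.5, 14.5, 32.3 and 8.07 in the PBS libraries, 54.7, 115 and 0.718 in the scramble libraries, and 0.112, 0.394, 0.188 and 4.13 in the mimic libraries. Every mimic library was below every PBS library, but scramble replicate 3 lay among the mimic libraries and mimic replicate 4 was far above the other 3. On the log2 scale the mimic differed from scramble by -3.67 ± 1.17 (SE) and from PBS by -3.56 ± 1.08 (adjusted p of 0.0332 and 0.0241, limma). Cfd reached 1 CPM in 6 of the 7 controls and in 1 of the 4 mimic libraries. It is thus in the table only through the controls, which favours a fall, and its call is no support.

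The call for Cfd against scramble was lost without mimic replicate 1, 2 or 3 or scramble replicate 1 or 2, and that against PBS without mimic replicate 1 or 3 or PBS replicate 1 or 3. Without mimic replicates 1 and 4 together the adjusted p was 0.0731 and 0.0611 by limma. Leaving out 1 library at a time, the change from scramble ran from -5.52 (without scramble replicate 3) to -2.48 (without scramble replicate 2). Of 8 fat cell markers 2 were in the table, and Adipoq, Plin1, Retn, Lep, Cidea and Adig were not. The summed level of those measured, Cidec and Lpl, was 28.1 to 52.8 in the PBS libraries, 29.6 to 41.7 in the scramble libraries and 43.0 to 53.8 in the mimic libraries. Cidec, which is also known from fatty hepatocytes, fell, from 8.55 to 22.8 in the controls to 2.69 to 4.45 in the mimic libraries, and Lpl rose, from 18.7 to 31.2 to between 39.6 and 49.3. The part of fat tissue in the Cfd values was not tested.

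Cfp encodes properdin, which stabilises the alternative convertase and comes from myeloid cells. It averaged 7.58 ± 2.25 in PBS (SD, n = 4), 6.15 ± 1.67 in scramble (SD, n = 3) and 6.88 ± 0.549 in mimic livers (SD, n = 4), and the groups overlapped.

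**Figure D2:**
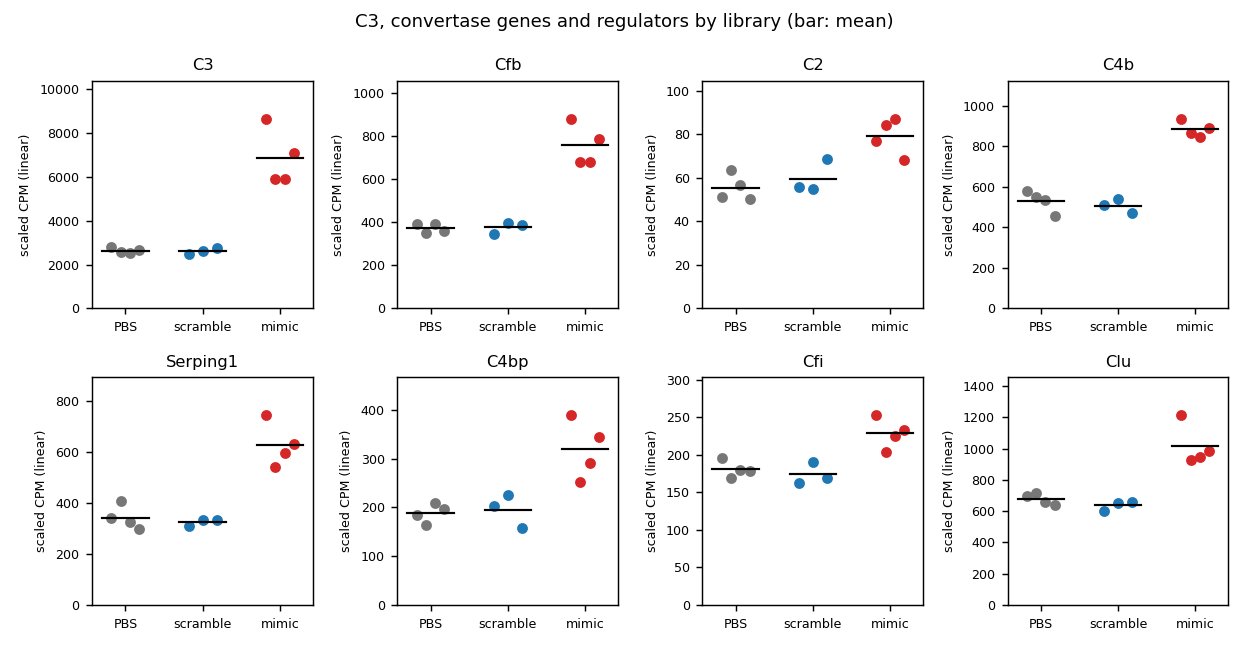
Scaled CPM (linear axes from 0) of C3, 3 convertase genes (Cfb, C2, C4b) and 4 soluble regulators in each library, with bars at the group means. C3 separates most, from 2492 to 2792 in the controls to 5879 to 8639 in the mimic libraries, and C2 least, with overlap between scramble and mimic.

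Of the classical pathway's hepatocyte-made genes, C4a, C4b, C2 and C1ra rose in both comparisons and C1s1 rose against PBS alone. C4b encodes C4 and C4a its near-identical neighbour Slp; both lie on chromosome 17, at 34728380 to 34743882 and 34809092 to 34823464. C4b was 578, 551, 533 and 457 in the PBS libraries, 509, 541 and 471 in the scramble libraries and 936, 867, 845 and 889 in the mimic libraries. The mimic libraries were all above the controls and close to one another. C4b differed by 0.80 ± 0.11 (SE) on the log2 scale from scramble and by 0.74 ± 0.10 from PBS (adjusted p of 0.000312 and 0.000258, limma). C4a had changes of 0.78 and 0.73. The ratio of C4a to C4b was between 1.05 and 1.08 in all 11 libraries, so reads may have been counted for both copies, and the level of either is uncertain.

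C2, which with C4 forms the classical convertase, was 55.5 ± 5.99 in PBS (SD, n = 4), 59.6 ± 7.82 in scramble (SD, n = 3) and 79.0 ± 8.38 in mimic livers (SD, n = 4). With limma the change on the log2 scale was 0.40 ± 0.12 (SE) from scramble and 0.50 ± 0.11 from PBS, at adjusted p of 0.0218 and 0.00438. Scramble replicate 3, at 68.6, was above the lowest mimic library, at 68.2, and the call against scramble was lost without scramble replicate 1 or 2.

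C1ra and C1s1 encode the proteases of the C1 complex and lie together on chromosome 6 with C1rb, a copy of C1ra. C1ra was 143, 153, 152 and 144 in the PBS libraries, 137, 151 and 174 in the scramble libraries and 212, 181, 197 and 182 in the mimic libraries. Scramble replicate 3 came close to the mimic libraries, and without scramble replicate 1 or 2 or mimic replicate 1 the call against scramble was lost. C1ra differed by 0.33 ± 0.10 (SE) on the log2 scale from scramble and by 0.38 ± 0.09 from PBS (adjusted p of 0.0213 and 0.00677, limma). C1rb changed by 0.38 ± 0.07 and 0.44 ± 0.07, from 31.01 ± 0.748 (SD, n = 4) and 32.4 ± 2.43 (SD, n = 3) to 42.4 ± 2.30 (SD, n = 4).

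The ratio of C1ra to C1rb was 4.21 to 5.09 over all libraries, and reads may be shared between the copies, which was not tested. The likeness of the copies shows in a stretch of 44 bases near their starts (RefSeq, GRCm38.p6, chr6:124512627-124512670 for C1ra and chr6:124570285-124570328 for C1rb, plus strand). It has 39 identical bases and holds both the C/EBP and the STAT match, in capitals.
C1ra stretch: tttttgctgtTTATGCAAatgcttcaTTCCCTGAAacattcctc
C1rb stretch: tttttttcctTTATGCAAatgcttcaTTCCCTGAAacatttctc
By the RefSeq starts used here it begins at base 7 of the annotated transcript of C1ra and 145 bases before that of C1rb. The GENCODE genes start elsewhere, at 124512405 and 124570294, so these positions depend on the annotation. C1s1 was 212 to 236 in the PBS libraries, 234 to 246 in the scramble libraries and 255 to 286 in the mimic libraries, with log2 changes of 0.18 ± 0.08 (SE) and 0.24 ± 0.07. Its adjusted p was 0.105 against scramble and 0.0233 against PBS by limma, and the latter call was lost without mimic replicate 1 (adjusted p of 0.052). Against scramble it was called with library totals (0.0224), with totals that leave out the Mup rows (0.0132) and with quantile normalization (0.0276). The groups did not overlap in either comparison.

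None of the 4 lectin pathway members was called on the deposited scale with all libraries. Mbl1 and Mbl2 encode mannose-binding lectins, which recognise sugars on microbes, and Masp1 and Masp2 the proteases they activate. Mbl1 was 71.0 to 80.8 in the PBS libraries, 69.4 to 74.6 in the scramble libraries and 107, 76.3, 77.4 and 94.5 in the mimic libraries. Its log2 change was 0.30 (95% interval 0.05 to 0.55) against scramble and 0.20 (-0.03 to 0.43) against PBS, and mimic replicates 1 and 4 were the high ones. Mbl2 was 69.4, 92.9, 92.7 and 62.2 in the mimic libraries, so that replicates 1 and 4 were the low ones. The ratio of Mbl1 to Mbl2 was 1.55 and 1.52 in mimic replicates 1 and 4. It was 0.821 and 0.834 in mimic replicates 2 and 3 and 0.669 to 0.974 in the controls. The Mbl2 change was -0.33 ± 0.14 (SE) against scramble, whose libraries lay at 92.3 to 112, and -0.07 ± 0.13 against PBS, at 75.5 to 85.7. Masp1 had differences of -0.21 ± 0.18 and 0.02 ± 0.16, and Masp2 of 0.01 ± 0.09 and 0.13 ± 0.09. None of these 8 differences passed the test, but some did in alternatives. Mbl1 was called higher than scramble with library totals, totals without the Mup rows and quantile normalization (limma adjusted p of 0.0121, 0.0216 and 0.0226) and without mimic replicate 2 or 3 (0.0324 and 0.0366), and higher than PBS with both totals (0.00996 and 0.0359). Mbl2 was called lower than scramble without mimic replicate 2 or 3 (0.045 and 0.0445). Against PBS, Masp2 was called higher with both totals and quantile normalization (0.00989, 0.0116 and 0.0413) and Masp1 with library totals (0.033).

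Of the 6 terminal pathway genes, C6 and C8g fell in both comparisons, Hc rose against scramble alone, and C8a, C8b and C9 were not called. C6 encodes the protein that joins C5b at the start of the pore, and lies on chromosome 15 at 4727175 to 4814967. It was 127, 209, 240 and 221 in the PBS libraries, 125, 155 and 245 in the scramble libraries and 90.8, 103, 112 and 72.2 in the mimic libraries. The groups did not overlap, but PBS replicate 1 and scramble replicate 1 lay close to the mimic libraries. The means were 199 ± 49.9 (SD, n = 4), 175 ± 62.5 (SD, n = 3) and 94.3 ± 17.1 (SD, n = 4). Relative to scramble the log2 change was -0.85 ± 0.25 (SE), and relative to PBS -1.05 ± 0.24; limma gave adjusted p of 0.0262 and 0.00572. With library totals the changes were -0.26 and -0.44 and neither was called. The call against scramble was also lost with quantile normalization and without mimic replicate 1, mimic replicate 4 or scramble replicate 3, and both calls were lost without mimic replicates 1 and 4 together.

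C8b, the gene of the C8 beta chain, was lowest in the same control libraries as C6. C8b was 136 in PBS replicate 1 and 143 in scramble replicate 1, and 159 to 243 in the other controls. C9, the gene of the subunit that lines the pore, was 198 and 162 in those libraries and 183 to 271 in the others. For C9, scramble replicate 2 thus lay below PBS replicate 1. Within a library, the ratio of C6 to C8b was 0.872 to 1.18 in the controls and 0.610 to 0.750 in the mimic libraries. The ratio of C6 to C9 was 0.642 to 1.01 and 0.432 to 0.508. Neither ratio overlapped between the controls and the mimic libraries, and neither needs a scaling between libraries. In order of level per kilobase C6 went from rank 15 in the PBS group to rank 20 in the mimic group.

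C8g encodes the gamma chain of C8, a lipocalin, and lies on chromosome 2 at 25498651 to 25501719. It was 91.7, 86.7, 96.2 and 95.5 in the PBS libraries, 85.7, 96.4 and 89.4 in the scramble libraries and 70.5, 73.9, 70.9 and 80.6 in the mimic libraries, a small difference with no overlap. On the log2 scale the mimic differed from scramble by -0.29 ± 0.08 (SE) and from PBS by -0.32 ± 0.07 (adjusted p of 0.0155 and 0.00549, limma), but it was 0.29 and 0.28 with library totals and not called. The call against scramble was lost with quantile normalization and without scramble replicate 2, and both were lost with totals that leave out the Mup rows, at -0.10 and -0.13. The ratio of C3 to C8g was 26.2 to 30.6 in the controls and 79.5 to 123 in the mimic libraries.

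The other chains of C8 and C9 had wide intervals. C8a, of the alpha chain, was at a log2 difference of -0.23 (95% interval -0.55 to 0.09) against scramble and -0.24 (-0.54 to 0.05) against PBS, with 0.36 in both comparisons with library totals. C8b was at -0.29 (-0.74 to 0.16) and -0.41 (-0.83 to 0.01). C9 was at 0.04 (-0.39 to 0.47) and -0.31 (-0.70 to 0.09). Hc, the gene of C5, averaged 409 ± 20.7 in PBS (SD, n = 4), 378 ± 34.4 in scramble (SD, n = 3) and 464 ± 38.0 in mimic livers (SD, n = 4). Its change of 0.30 ± 0.10 (SE) against scramble had an adjusted p of 0.0418 by limma and that of 0.18 ± 0.09 against PBS 0.152. The call for Hc was lost without any of mimic replicates 1, 2 and 3, PBS replicates 1, 3 and 4 and scramble replicates 1 and 2.

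**Figure D3:**
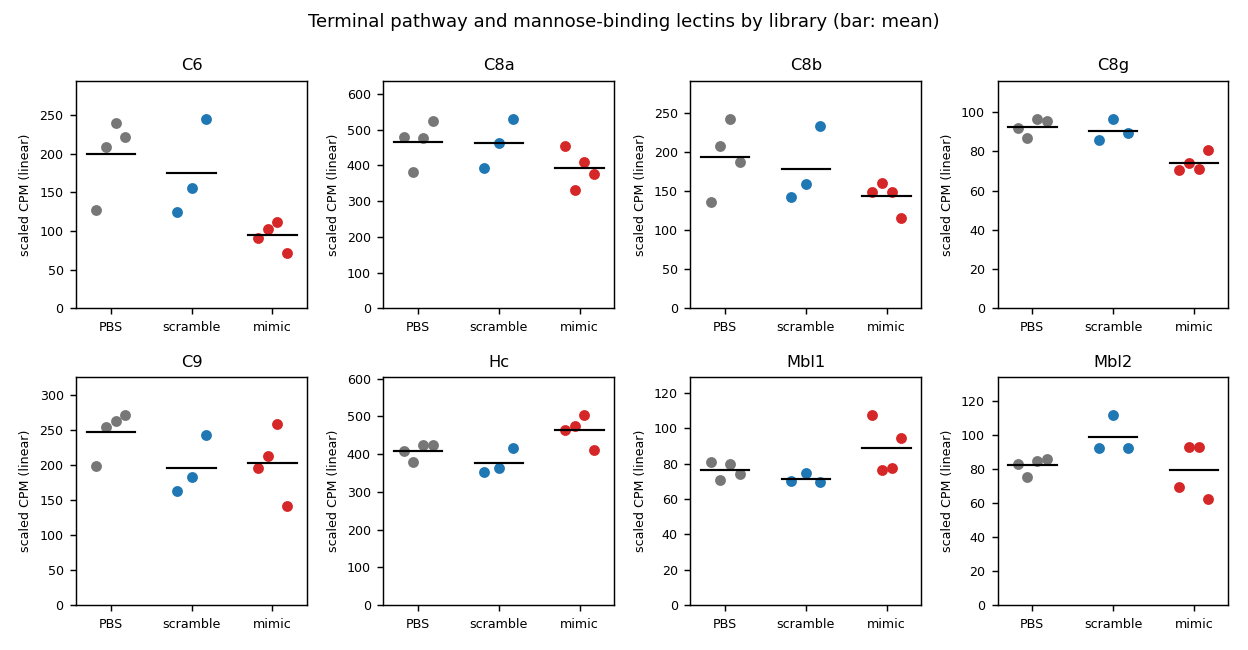
Scaled CPM (linear axes from 0) of the 6 terminal pathway genes and the mannose-binding lectin genes Mbl1 and Mbl2 in each library, with bars at the group means. C6 and C8g lie lower in the mimic libraries (72.2 to 112 and 70.5 to 80.6) than in all controls on the deposited scale (the C8g change turns to 0.29 and 0.28 with library totals), while C8a, C8b, C9 and Mbl2 overlap between the groups.

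All 4 soluble regulators rose in both comparisons. Serping1 encodes the C1 inhibitor, which blocks C1r and C1s, and lies on chromosome 2 at 84765387 to 84775444. It was 339, 406, 324 and 299.7 in the PBS libraries, 310, 332 and 333 in the scramble libraries and 744, 542, 597 and 631 in the mimic libraries. The mimic libraries were well above the controls. With limma the change on the log2 scale was 0.94 ± 0.13 (SE) from scramble and 0.87 ± 0.12 from PBS, at adjusted p of 0.000394 and 0.000314. Beside its target C1s1, Serping1 was 1.28 to 1.92 in the controls and 2.08 to 2.70 in the mimic libraries.

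C4bp encodes the chain of the C4b-binding protein, a cofactor in the inactivation of C4b, and lies on chromosome 1 at 130634773 to 130661632. It was 183, 164, 210 and 197 in the PBS libraries, 203, 225 and 159 in the scramble libraries and 389, 253, 291 and 345 in the mimic libraries. Mimic replicates 1 and 4 were again the highest. Relative to scramble the log2 change was 0.70 ± 0.16 (SE), and relative to PBS 0.74 ± 0.15; limma gave adjusted p of 0.0072 and 0.00298, and the call against scramble was lost without those replicates (adjusted p of 0.0569).

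Clu encodes clusterin, a chaperone that also binds the terminal complex, and lies on chromosome 14 at 65968483 to 65981547. It was 637 to 715 in the PBS libraries, 600.4 to 656 in the scramble libraries and 927 to 1213 in the mimic libraries, with log2 changes of 0.67 ± 0.11 (SE) and 0.58 ± 0.11 at limma adjusted p of 0.00144 and 0.00179. Cfi encodes factor I, the protease that cleaves C3b and C4b, and rose least of the 4. It was 181 ± 11.2 in PBS (SD, n = 4), 174 ± 14.8 in scramble (SD, n = 3) and 228 ± 20.1 in mimic livers (SD, n = 4), log2 changes of 0.39 ± 0.10 (SE) and 0.34 ± 0.09. The adjusted p was 0.0105 and 0.0128 by limma, and the call against scramble was lost without scramble replicate 1 (adjusted p of 0.0516). Both calls for Cfi were lost without mimic replicates 1 and 4. The ratio of Cfi to C3 was 0.0617 to 0.0729 in the controls and 0.0292 to 0.0380 in the mimic libraries, with no overlap.

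The membrane regulators were not called. Cd55, which breaks up convertases, was 3.86 ± 0.660 in PBS (SD, n = 4), 3.73 ± 0.482 in scramble (SD, n = 3) and 3.65 ± 0.569 in mimic livers (SD, n = 4). Cd59a, which blocks the pore, was 24.8 ± 1.62, 23.7 ± 2.37 and 28.1 ± 1.83, a log2 change of 0.24 ± 0.09 (SE) against scramble with an adjusted p of 0.0518 by limma and of 0.18 ± 0.08 against PBS with 0.102. Cd59a passed the test in some alternatives, among them the fit without mimic replicate 1 (adjusted p of 0.0471).

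Among the myeloid members C1qb and C1qc rose over scramble with a wide spread, and the receptors C3ar1 and C5ar1 were higher than their very low levels in the controls. The 3 chains of C1q, the recognition part of C1, are made in the liver mainly by macrophages, and their genes lie side by side on chromosome 4. C1qb was 20.3, 26.1, 17.5 and 10.8 in the PBS libraries, 10.5, 15.7 and 20.9 in the scramble libraries and 25.2, 45.7, 37.4 and 29.9 in the mimic libraries. Mimic replicate 2 was the highest and PBS replicate 2 lay above the lowest mimic library. On the log2 scale the mimic differed from scramble by 1.10 ± 0.29 (SE) and from PBS by 0.88 ± 0.27 (adjusted p of 0.0139 and 0.0238, limma). C1qc rose by 0.87 ± 0.25 over scramble (adjusted p of 0.0231 by limma) and differed by 0.60 ± 0.24 from PBS, which did not pass (0.0634). C1qa was at 0.70 ± 0.30 and 0.55 ± 0.27 and was not called, at adjusted p of 0.0906 and 0.138 by limma.

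The call for C1qb against scramble was lost without scramble replicate 1, and that against PBS without mimic replicate 2 or 3 or PBS replicate 3 or 4. C1qc lost its call against scramble without scramble replicate 1 or 2 or mimic replicate 2. Within a library the chains kept different ratios. C1qb was 1.06 to 1.19 of C1qa in the controls and 1.26, 1.37, 1.55 and 1.52 in mimic replicates 1 to 4, so that every mimic library was above every control. C1qc was 0.881 to 1.11 of C1qa in the controls and 0.981 to 1.06 in the mimic libraries, with overlap.

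C3ar1 encodes the receptor of C3a and lies on chromosome 6 (122847138 to 122856161, minus strand). It was 1.18, 0.987, 1.10 and 0.597 in the PBS libraries, 0.712, 0.779 and 1.08 in the scramble libraries and 4.48, 7.43, 5.40 and 4.68 in the mimic libraries. Every mimic library was above every control by a wide gap. The means were 0.965 ± 0.257 (SD, n = 4), 0.856 ± 0.194 (SD, n = 3) and 5.50 ± 1.35 (SD, n = 4), ratios of 6.43 to scramble and 5.70 to PBS. The log2 difference was 1.79 ± 0.15 (SE) from scramble and 1.71 ± 0.14 from PBS. C3ar1 reached 1 CPM in 1 of the 7 controls and in all 4 mimic libraries, so it had to be higher to be in the table, and its call is no support. Its promoter (RefSeq, GRCm38.p6, chr6:122856108-122856407, minus strand) is shown as that of the member with the largest positive difference of log2(value + 1) in both comparisons. That rank depends on the scale and on a rise the filter required. By ratio of means C5ar1 stood higher, at 7.20 to scramble and 7.93 to PBS. Capitals mark the match to the NF-kB motif, read on the opposite strand and beginning 14 bases before the start.
C3ar1 promoter: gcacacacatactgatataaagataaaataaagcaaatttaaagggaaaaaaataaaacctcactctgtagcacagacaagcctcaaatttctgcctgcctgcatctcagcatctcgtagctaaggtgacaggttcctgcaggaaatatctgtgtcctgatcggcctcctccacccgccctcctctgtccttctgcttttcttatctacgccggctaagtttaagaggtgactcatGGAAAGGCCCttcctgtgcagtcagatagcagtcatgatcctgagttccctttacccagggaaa

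C5ar1 encodes the receptor of C5a, which draws neutrophils and macrophages, and lies on chromosome 7 at 16246743 to 16259540. It was 0.407, 0.465, 0.223 and 0.339 in the PBS libraries, 0.356, 0.422 and 0.406 in the scramble libraries and 3.54, 2.65, 1.95 and 3.24 in the mimic libraries, ratios of the means of 7.20 to scramble and 7.93 to PBS. The log2 difference was 1.44 ± 0.13 (SE) and 1.48 ± 0.12. C5ar1 reached 1 CPM in 0 of the 7 controls and in all 4 mimic libraries, and its call is likewise no support. Both receptors stayed among the 3 least abundant members per kilobase in the mimic group, at 1.28 and 1.11 scaled CPM per kilobase.

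Markers of several cell types were read beside these genes. Their counts stand beside 17.3% of all genes called higher and 14.7% lower than scramble. Against PBS the shares were 20.0% and 17.1%. Of 10 general macrophage markers 7 were higher than scramble and 6 higher than PBS, with summed levels of 82.9 to 220.5 in the PBS libraries, 97.7 to 129 in the scramble libraries and 351 to 439 in the mimic libraries; Cd14 is in the table only through the mimic libraries. The 10 markers of monocyte-derived and lipid-laden macrophages summed to 18.5 to 33.7, 20.6 to 31.01 and 130 to 160. Of these, Ccr2, Ly6c2, Gpnmb, Trem2, Chil3 and Cx3cr1 are in the table only through the mimic libraries and had to be higher. The other 4, which pass on the controls alone, were called higher in both comparisons. Of 8 markers of resident Kupffer cells 5 were lower and none higher, 71.6 to 139.6, 67.8 to 129.6 and 38.8 to 75.9. The 5 include Timd4 and Cd163, which reached 1 CPM in all 7 controls and in 0 mimic libraries. These are in the table only through the controls and had to be lower. The 5 measured of 8 neutrophil markers summed to 1.65 to 2.66, 1.17 to 1.77 and 16.2 to 35.6, but S100a8, S100a9, Ltf and Ngp are there only through the mimic libraries and had to be higher, which leaves 1, Csf3r, that passes on the controls.

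Of 8 markers of stellate cells and fibroblasts 5 were higher and 1, Reln, lower in both comparisons, with summed levels of 62.3 to 101 in the PBS libraries, 90.6 to 101.5 in the scramble libraries and 184 to 354 in the mimic libraries. Of 8 markers of sinusoidal endothelium 1 was higher and 2 lower than scramble and 4 lower than PBS, with summed levels of 83.5 to 115, 87.5 to 110 and 58.4 to 98.4. The endothelial counts against scramble were near the shares of all genes, 17.3% higher and 14.7% lower. Against PBS those shares were 20.0% and 17.1%. The part of these cells in the members' values was not tested. No measured marker of these lists was at 0 in every library, though Chil3, Ltf and Ngp were at 0 in at least 1, and none of 8 lymphocyte markers was in the table.

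Against single markers of the same library the C1q level moved in opposite directions. C1qa was 0.366 to 0.585 of Clec4f, a Kupffer cell lectin, in the controls and 3.98 to 9.89 in the mimic libraries, while it was 4.66 to 6.05 of Cd68, a lysosomal protein of macrophages, in the controls and 1.51 to 2.11 in the mimic libraries. Its ratio to Adgre1, the general marker F4/80, was 2.35 to 3.26 and 3.25 to 4.87. C3ar1 was 0.0417 to 0.0725 of C1qa in the controls and 0.223 to 0.238 in the mimic libraries, a narrow range although C1qa itself ran from 19.6 to 33.3 there. C5ar1 was 0.0144 to 0.0372 of C1qa and 0.0796 to 0.177. Both receptors had to be higher to be in the table, so their ratios to C1qa are no support. The part of changed cell numbers in the values of C1q and the receptors was not tested.

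**Figure D4:**
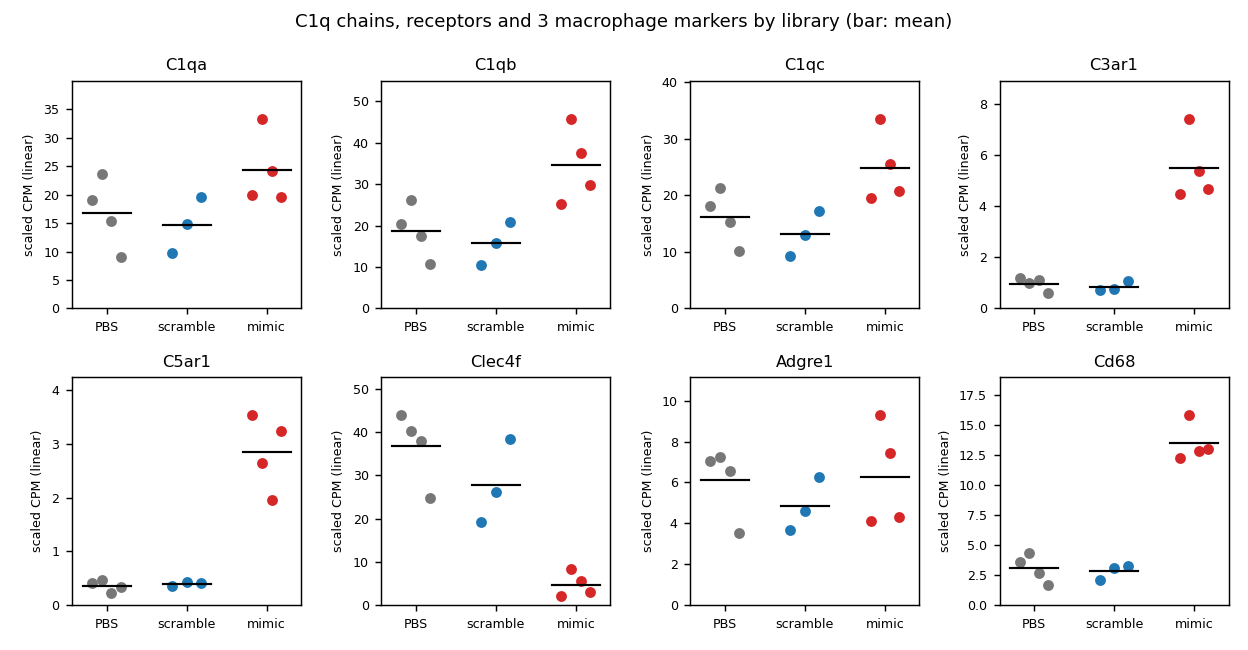
Scaled CPM (linear axes from 0) of the C1q chains, the receptors C3ar1 and C5ar1 and the macrophage markers Clec4f, Adgre1 and Cd68 in each library, with bars at the group means. The receptors and Cd68 are higher in every mimic library than in any control, Clec4f is lower, and C1qa, C1qb, C1qc and Adgre1 overlap with the PBS libraries. The receptors are in the table only through the mimic libraries and had to be higher.

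**Figure D5:**
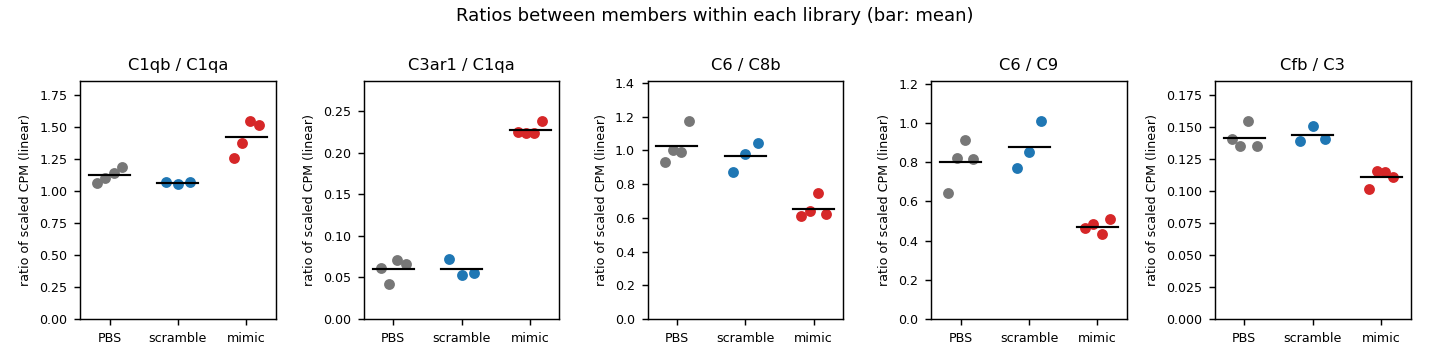
Ratios of scaled CPM between 2 members within each library (linear axes from 0), with bars at the group means. None of these 5 ratios, picked from those computed, overlaps between the 7 controls and the mimic libraries. Others did overlap, such as C1qc to C1qa, C8a to C8b and Clu to C9. C1qb to C1qa and C3ar1 to C1qa are higher in the mimic libraries, and C6 to C8b, C6 to C9 and Cfb to C3 are lower. C3ar1 had to be higher to be in the table, so its ratio is no support.

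By source, 11 of the 21 hepatocyte-made members rose and 2 fell in each mimic comparison, with a median change of 0.30 against scramble and 0.24 against PBS. C4a and C4b, which may share reads, are both among those that rose. Of all genes 17.3% were called higher and 14.7% lower than scramble, and 20.0% and 17.1% than PBS. Of the 4 myeloid members that pass on the controls alone, 2 rose against scramble and 1 against PBS, with medians of 0.78 and 0.57, and none fell. C1rb rose and Cfd fell among the 4 of other source, Cfd being in the table only through the controls. Within the mimic group, 11 of the 21 hepatocyte-made members had their highest value in replicate 1, among them C3, Cfb, Serping1, C4bp and Clu, and 5 of the 6 myeloid members had theirs in replicate 2, C5ar1 being the other. All members together took 1.14% to 1.34% of the reads outside the Mup rows in the controls and 2.14% to 2.97% in the mimic libraries.

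Of 37 further genes of the pathway 29 were in the table. Of these 9 rose and 3 fell against scramble, with a median change of 0.18, and 11 rose and 5 fell against PBS, with a median of 0.21, beside 17.3% and 14.7% of all genes against scramble and 20.0% and 17.1% against PBS. C7 and Itgax are in the table only through the mimic libraries. The 6 with the smallest p were the same in both comparisons. Apcs, the gene of serum amyloid P component, a pentraxin that binds C1q, was 10.2 to 24.0 in the controls and 361, 149, 149.7 and 352 in the mimic libraries, log2 changes of 3.83 ± 0.35 (SE) and 4.03 ± 0.32 at limma adjusted p of 3.56e-05 and 1.22e-05. Its mimic values split into a high pair, replicates 1 and 4, and a low pair, replicates 2 and 3. Cpb2, a carboxypeptidase that trims C3a and C5a, rose by 1.27 ± 0.15 and 1.18 ± 0.14.

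Among the receptors outside the 31, Itgam and Itgax, the alpha chains of complement receptors 3 and 4, were higher by 1.86 and 2.45 on the log2 scale against scramble and 1.73 and 2.26 against PBS, Itgax being one that had to be higher. Cd93, a membrane protein first described as a C1q receptor, rose by 2.45 and 2.32. The ficolin gene Fcna, a lectin pathway recognition molecule made by Kupffer cells, fell by 1.69 and 1.73 on the log2 scale, from 11.3 to 18.2 in the controls to 2.87 to 4.63 in the mimic libraries. Itgam is also among the monocyte markers counted above.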

How the data were processed

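Liver RNA of mice in 11 libraries was read paired-end at 48 bases from stranded mRNA libraries, per the labels' protocols. The submitters' processing notes name build mm10, the aligner Bowtie, edgeR 3.8.6 under R 3.1.2, and bedtools 2.17.0; settings and gene annotation are not given in the sources used here. The deposited signal is a scaled CPM for 13636 genes. All values of a library were whole multiples of 1 step (tolerance 1e-06), from which the reads counted were estimated. With no count table, count tests were not the main analysis.

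Groups came from the sample titles. limma 3.58.1 (R 4.3.3) was fitted to log2(value + 1) as 3 group means over 11 libraries, with a trended variance, and p-values were adjusted over all 13636 genes (Benjamini-Hochberg, threshold 0.05). The design had assumed CPM. The fit was tested on simulated data first. The members, marker lists and the list of 37 further pathway genes were chosen with earlier results of these data known, so no count over them is independent support. All members are named, and of the further genes the 6 with the smallest p per mimic comparison. Same-numbered libraries of different groups had correlations of their deviations between -0.28 and 0.26, so the numbers were not taken as pairs. Alternatives covered the pseudocount (0.25), a mean of at least 5, scalings, a replicate block, the 2 groups alone and leaving out libraries; totals without the Mup rows were added after seeing the data. Gene positions and exon lengths came from GENCODE M21 (GRCm38, the assembly of mm10), and sequences from RefSeq GRCm38.p6. All marker lists were written from memory. Of the hepatocyte and platelet lists 2 of 11 and 0 of 1 measured genes were higher than scramble and none lower, beside 17.3% and 14.7% of all genes.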

Additional observations from a re-analysis of the deposited data

Results flagged for a closer look

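In 62 groups of 4 libraries (31 members in the PBS and in the mimic group) a single library far from the other 3 was looked for, and 2 were found, where chance flags about 1 in 20. C1s1 stood at 212.0 in PBS replicate 2, below the other PBS libraries by 0.88 of the range of the group. Cfd stood at 4.13 in mimic replicate 4, above the other mimic libraries by 0.93 of the range.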

How the results depend on the processing

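Of the 19 calls against scramble, 9 kept their direction and call in all alternatives that gave them a value (C3, Cfb, Serping1, C4a, C4b, Clu, C1rb, C3ar1 and C5ar1), as did 12 of 18 against PBS (the same 9 and C1ra, C2 and C4bp). C3ar1 and C5ar1, in the table only through the mimic libraries, had to be higher, so their kept calls are no support. They fall below the filter on a mean of 5 and have no value there. C4a and C4b may share reads, as may C1ra and C1rb, so their kept calls may not be separate. Leaving out 1 library, the count of members higher than scramble was 10 to 17 and of those lower 1 to 3; the lowest counts were 10 without scramble replicate 1, and 1 lower without mimic replicate 1 or scramble replicate 2. The count lower than scramble was 1 with library totals, 1 with quantile normalization and 1 leaving out both mimic replicates 1 and 4, and the count lower than PBS was 1 with library totals and 1 leaving out both. The cause was not tested. The scramble and PBS groups gave 0 member calls throughout.

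With library totals, where the median of all genes was 0.49 and 0.51, changes that were negative turned positive. Against scramble C8a was 0.36, C8b 0.29, C8g 0.29, Masp1 0.36, Mbl2 0.25 and Cd55 0.44. Against PBS C8a was 0.36, C8b 0.20, C8g 0.28, C9 0.30, Cfp 0.46, Mbl2 0.53 and Cd55 0.42. With totals that leave out the Mup rows Cd55 was 0.12 against scramble, and Cfp 0.090, Mbl2 0.12 and Cd55 0.088 against PBS. With quantile normalization Mbl2 was 0.0023 against PBS. Leaving out both mimic replicates 1 and 4, Cd55 was 0.057 against scramble, and Mbl2 0.17 and Cd55 0.023 against PBS. Leaving out 1 library at a time, the sign of uncalled changes turned for C9 (-0.092 to 0.20), Masp2 (-0.045 to 0.061) and Cd55 (-0.11 to 0.034) against scramble, and for Cfp (-0.29 to 0.035), Masp1 (-0.14 to 0.14), Mbl2 (-0.15 to 0.036) and Cd55 (-0.14 to 0.016) against PBS.

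With the replicate number as a block 16 members were higher and 2 lower than scramble and 16 higher and 3 lower than PBS; C1qa was then called against scramble (0.87) and C1qc against PBS (0.60), and Hc and Cfd lost their calls against scramble. With library totals C1qa, C1s1, C9, Cfp, Mbl1 and Cd59a gained a call against scramble, and C1qa, C1qc, Hc, Masp1, Masp2, Mbl1 and Cd59a against PBS; C8b was called lower than PBS without PBS replicate 1. Not every library correlated best with its own number. With only the 2 groups compared in the fit, C1ra, Hc and Cfd lost their calls against scramble. The edgeR and DESeq2 tests on reads were not run, since too few low values are in the table to check the reads. The low values of C3ar1 and C5ar1 in the controls and of Cfd in the mimic libraries rest on few reads.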
